A study of Rattus norvegicus with 59 samples.

Results

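Tnni3, Ckm, Cox8b and Alpk3 are genes of heart and skeletal muscle, and they were followed here through the lungs of rats that had inhaled crystalline silica or air. The 4 genes were chosen by name, with measured values of the same lungs in view: Alpk3 for its lower FPKM in silica than in air lungs at every time, and Tnni3, Ckm and Cox8b for values that varied widely between libraries. They are 4 of 2887 complete gene entries in the table and 4 of the 1278 entries that were tested, so all 4 passed the filter on low values (FPKM at or above 1 in 4 libraries or more). FPKM are fragment numbers scaled to transcript length and to the mapped fragments of the library, so levels of different genes can be set side by side per length. Because the difference between silica and air chose the members, it is given for them as a description, with values and errors and no test. The spread between libraries chose Tnni3, Ckm and Cox8b, so the size of their spread is a description too.

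The animals were male Fischer rats (F344/DuCrl), 3 months old when bought. They breathed crystalline silica, the mineral dust behind silicosis, at 15 mg/m3 in a whole-body chamber for 6 hours per day on 5 days, or air (0 mg/m3) as the control. Lung pieces came from rats kept for 1, 3 or 6 months, or for 9, 12 or 18 months, after exposure, with 5 rats per group except for the 9-month air group with 4, which gave 12 groups and 59 libraries of total RNA, 1 per rat. No genetic change, Cre line or further treatment is named for any group.

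Striated muscle shortens when thin actin filaments slide past thick myosin filaments, and calcium starts each beat or twitch through the troponin complex on the thin filament. Cardiac muscle uses its own troponin subunits and its own forms of several mitochondrial proteins. Rodent lungs are known to hold striated muscle of their own, because a sleeve of cardiomyocytes continues from the left atrium along the pulmonary veins into the lung. How much of it a piece of lung holds can vary with where the piece is cut.

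Facts of the whole table bear on these genes in a few ways. It covered part of the genome: of 2061 names known to the GRCr8 gene table, 2046 (99.3%) lay on chromosome 1, and genes elsewhere, including the cardiac genes Myh6, Actc1, Myl7 and Nppa, were not analysed here. Per library the FPKM summed to between 12818 and 38613, and relative depth, read from the smallest steps of rare entries, ranged from 0.432 to 2.26. Libraries of a group correlated at r = 0.912 to 0.983 over 116 pairs. The tissue label was checked on Napsa, an aspartic protease of alveolar type 2 cells, which stood between 71.5 and 191 FPKM in all 59 libraries.

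The start-site windows of the 4 genes are shown first, as a description. Whether their motifs bear on the variation from rat to rat was not tested. Each is the RefSeq sequence of the GRCr8 assembly from 250 bases before to 50 bases after the annotated start, all 4 members matched, and all lie on chromosome 1. The windows are chr1:78342321-78342620 (plus strand) for Tnni3, chr1:88189211-88189510 (plus strand) for Ckm, chr1:205408224-205408523 (minus strand) for Cox8b and chr1:144423496-144423795 (plus strand) for Alpk3. Capitals mark matches, on either strand, to the E-box (CANNTG), to GATA and to the MEF2 consensus, which are binding motifs of basic helix-loop-helix, GATA and MEF2 transcription factors of muscle genes.
Tnni3: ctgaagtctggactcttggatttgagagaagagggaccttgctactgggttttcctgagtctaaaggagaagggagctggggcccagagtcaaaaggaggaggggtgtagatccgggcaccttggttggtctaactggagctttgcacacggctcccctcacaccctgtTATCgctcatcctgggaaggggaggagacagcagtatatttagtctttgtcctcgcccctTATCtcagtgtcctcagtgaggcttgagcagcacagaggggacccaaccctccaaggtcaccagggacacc
Ckm: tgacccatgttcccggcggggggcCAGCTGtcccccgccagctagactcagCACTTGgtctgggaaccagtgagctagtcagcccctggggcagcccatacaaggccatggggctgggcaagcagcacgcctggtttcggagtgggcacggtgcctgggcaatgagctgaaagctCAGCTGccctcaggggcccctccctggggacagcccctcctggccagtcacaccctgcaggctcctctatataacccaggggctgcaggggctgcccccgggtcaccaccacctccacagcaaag
Cox8b: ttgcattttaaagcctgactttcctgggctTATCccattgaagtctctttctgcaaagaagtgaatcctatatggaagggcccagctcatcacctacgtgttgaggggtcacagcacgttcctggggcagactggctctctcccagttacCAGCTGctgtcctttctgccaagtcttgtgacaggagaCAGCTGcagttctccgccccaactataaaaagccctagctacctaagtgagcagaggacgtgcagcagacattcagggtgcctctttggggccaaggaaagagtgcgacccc
Alpk3: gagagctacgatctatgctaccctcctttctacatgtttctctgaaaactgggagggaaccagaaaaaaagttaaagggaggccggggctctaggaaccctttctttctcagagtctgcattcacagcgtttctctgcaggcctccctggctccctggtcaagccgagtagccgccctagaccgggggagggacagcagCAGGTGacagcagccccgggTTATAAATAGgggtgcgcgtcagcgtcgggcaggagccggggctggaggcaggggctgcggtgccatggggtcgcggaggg

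The Tnni3 window held 2 GATA matches and no E-box, the Ckm window 3 E-boxes and no GATA match, the Cox8b window 2 E-boxes and 1 GATA match, and the Alpk3 window 1 E-box. The only match to the MEF2 consensus among the 4 lay in the Alpk3 window, where it overlaps a TATAAA match, and 3.29% of 33469 rat windows of the same length hold one. E-boxes are found in 72.1% and GATA in 60.5% of those windows, so their presence says little by itself. The CArG consensus and the M-CAT letters CATTCC had no match in these 4 windows, against 1.64% and 14.2% of all windows.

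Which muscle the lung pieces held was read from lists of marker genes. Tnni3 encodes cardiac troponin I, the inhibitory troponin subunit of heart muscle, and Cox6a2 and Cox8b encode heart and skeletal muscle forms of cytochrome oxidase subunits. Their median FPKM over 59 libraries was 5.79, 3.22 and 6.05, with 86.7, 28.6 and 42.6 in the highest library. Csrp3, the muscle LIM protein of the Z-disc in cardiac and slow muscle, had a median of 1.13 and reached 6.74.
Genes of skeletal muscle stood near 0. Myod1, the factor that commits cells to the skeletal muscle lineage, was listed at 0 in 58 of 59 libraries. Mylpf, the myosin light chain of fast fibres, reached 0.403 FPKM at most and was listed at 0 in 24 libraries, and Atp2a1, the calcium pump of fast fibres, reached 0.156. Tnnt1, troponin T of slow skeletal fibres, had a median of 0.0916 and reached 0.770.
In the library with the highest Tnni3, 86.7 FPKM, Mylpf was listed at 0, Atp2a1 stood at 0.0368 and Tnnt1 at 0.242. Of the skeletal lists only Mybpc2, a myosin-binding protein of fast fibres, passed the filter, and it stood between 0.332 and 1.31 FPKM and did not follow Tnni3 (r = -0.35 over the 59 libraries, rank 934 of 1013 genes). Of the cardiomyocyte list, Hrc, a calcium-binding protein of the sarcoplasmic reticulum, and Trdn, triadin of the calcium release complex, were as low as the skeletal genes, with at most 0.759 and 0.400 FPKM, and stood at 0.607 and 0.225 in the library with the highest Tnni3. The skeletal genes and these 2 cardiac genes were thus low where cardiac troponin I was not, among the 8 of 38 cardiomyocyte, 5 of 22 fast and 1 of 2 slow skeletal list genes that the table holds. Ckm, Cox8b and Alpk3 are also genes of skeletal muscle.

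**Figure D1:**
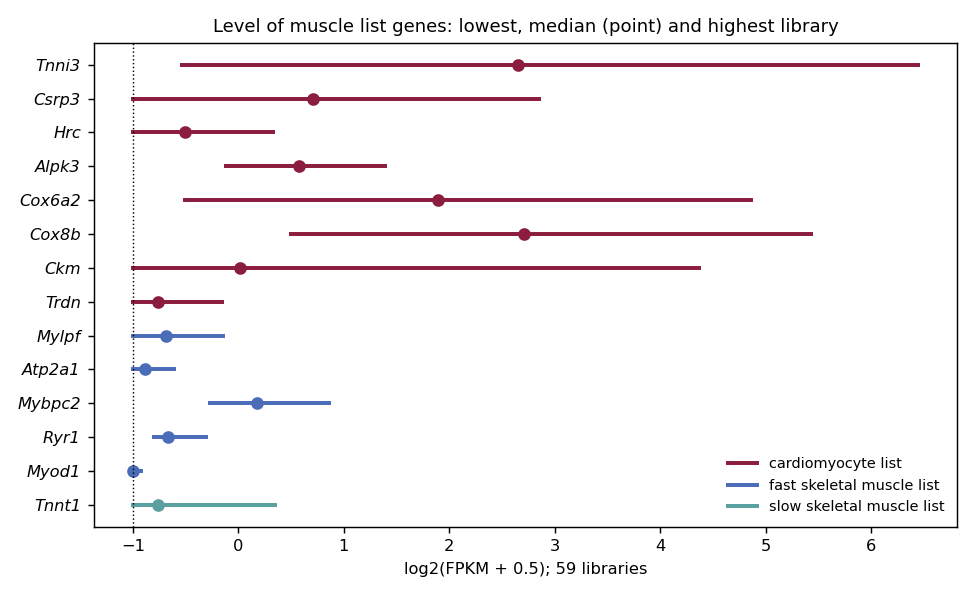
Level of each cardiomyocyte, fast skeletal and slow skeletal list gene in the table, as log2(FPKM + 0.5) on the x axis; a line runs from the lowest to the highest of 59 libraries, the point is the median, and the dotted line at -1 is an FPKM of 0. Tnni3, Cox8b, Cox6a2 and Ckm spread far to the right, while the skeletal genes Myod1, Atp2a1, Mylpf and Ryr1 and the cardiomyocyte list genes Hrc and Trdn stay near the dotted line.

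Tnni3 varied more between rats of the same group than between groups. In air lungs at 1 month it stood at 4.55, 38.8, 2.73, 24.3 and 10.4 FPKM, and in silica lungs at 7.56, 23.0, 3.57, 2.28 and 9.21. At 3 months the air values were 59.7, 25.4, 32.3, 2.80 and 3.37, and the silica values 4.15, 8.58, 5.77, 6.39 and 86.7. The ranges overlap at both times, although 3 of 5 air rats at 3 months lie above 4 of 5 silica rats, and 1 silica rat at 3 months held more Tnni3 than any air rat.
At 6 months Tnni3 stood at 10.6, 2.64, 5.53, 5.79 and 1.49 in air and at 5.90, 2.30, 1.05, 2.55 and 10.3 in silica. At 9 months the values were 14.1, 9.69, 5.61 and 9.05 in air and 19.7, 7.61, 6.53, 0.192 and 2.32 in silica. The silica group at 9 months holds both values above and values below the whole air group.
At 12 months Tnni3 was 2.07, 0.995, 3.07, 4.95 and 20.1 in air and 3.30, 6.79, 16.9, 0.802 and 8.14 in silica. At 18 months it was 1.16, 0.679, 6.95, 14.2 and 4.71 in air and 0.765, 8.35, 4.17, 0.363 and 8.75 in silica. No time separated the 2 treatments.
Within a group the highest library exceeded the lowest by 2.52-fold to 103-fold, with a median over groups of 20.6-fold. The 103-fold rests on the 9-month silica library at 0.192 FPKM, whose relative depth was low, 0.471. The SD of log2(FPKM + 0.5) within groups was 1.45 for Tnni3, the 12th highest of 1278 tested genes, where the median gene had 0.157. Tnni3 was chosen for its wide spread between libraries, so nothing is read from this rank. Silica minus air, averaged over the 6 times, was -0.38 ± 0.37 (SE) on the log2(FPKM + 0.5) scale, and at single times it ran from -1.04 ± 0.94 at 9 months to 0.36 ± 0.89 at 12 months. Leaving out 1 library changed the sign of the difference at 3, 6, 12 and 18 months.

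Ckm encodes the muscle form of creatine kinase, which regenerates ATP from phosphocreatine beside the myofibrils. It was lower than Tnni3, with a median of 0.512 FPKM, and was listed at 0 in 6 libraries, whose Tnni3 ran from 0.192 to 1.49. The highest value, 20.2 FPKM, came from the same 3-month silica rat that had the highest Tnni3, and the second highest, 11.3, from the 3-month air rat with the second highest Tnni3.
At 1 month Ckm was 0.439, 6.28, 0.0443, 3.79 and 0.812 FPKM in air and 1.00, 3.21, 0.395, 0.303 and 0.840 in silica. At 18 months it was listed at 0 in 2 air rats and stood at 0.532, 1.68 and 0.389 in the others, and in silica it was 0, 0.312, 0.397, 0.0918 and 0.931. The treatments overlapped at every time, and silica minus air averaged -0.15 ± 0.26 (SE).

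Cox8b, the muscle form of cytochrome oxidase subunit 8, was measured in every library, also where Ckm was listed at 0. In the 9-month silica rat with the lowest Tnni3 of all libraries (0.192 FPKM), Ckm and Csrp3 were listed at 0, while Cox8b stood at 4.82 FPKM. Its library had a low relative depth, 0.471, and the 6 libraries with Ckm listed at 0 ran from 0.471 to 2.26. In the other 5 libraries with Ckm listed at 0 it was 4.85 (air, 6 months), 0.919 (silica, 12 months), 8.52 and 6.56 (air, 18 months) and 3.69 (silica, 18 months). Cox8b thus ran from the lowest value of all 59 libraries to above its median in these 6. A straight line of FPKM against Tnni3 over the 59 libraries met Tnni3 = 0 at 3.49 ± 0.30 (SE) FPKM of Cox8b and rose by 0.433 ± 0.017 per FPKM of Tnni3. Without the 2 libraries farthest from the Tnni3 median it met 0 at 4.00 ± 0.33 and rose by 0.360 ± 0.029. The same line for Ckm met Tnni3 = 0 at -0.236 ± 0.062 FPKM without those 2 libraries. Cox8b reached 42.6 FPKM in the rat with the most Tnni3.
At 9 months Cox8b was 10.9, 6.36, 6.19 and 11.1 FPKM in air and 9.30, 4.36, 4.32, 4.82 and 4.74 in silica. At 18 months it was 8.52, 6.56, 4.68, 10.1 and 8.45 in air and 3.69, 8.23, 3.36, 2.84 and 5.49 in silica. Silica rats lay mostly in the lower part of the range at both times, with overlap. Over the 6 times silica minus air was -0.49 ± 0.18 (SE), and with log2 Tnni3 held in the model it was -0.35 ± 0.13. The 12-month silica rat at 0.919 FPKM was followed by the next lowest library at 2.84.

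**Figure D2:**
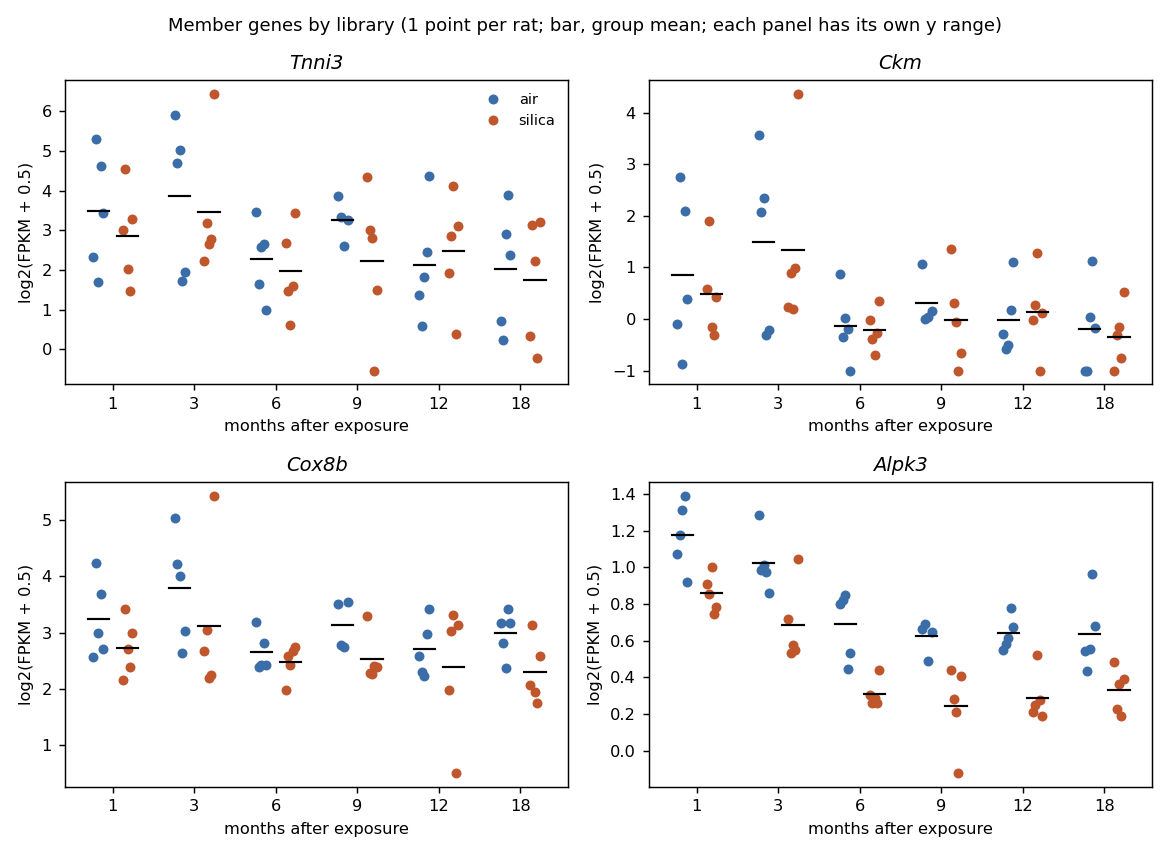
Level of the 4 members as log2(FPKM + 0.5) on the y axis against months after exposure, 1 point per rat, air in blue and silica in orange, with a bar at the group mean and a separate y range per panel. The Tnni3, Ckm and Cox8b points of silica and air overlap at every time, while the Alpk3 bars of silica lie below those of air at all 6 times.

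Alpk3 encodes alpha-kinase 3, a protein of the sarcomere M-band that is needed for normal heart muscle and whose loss is known to cause cardiomyopathy. It was a low but steady gene here, between 0.420 and 2.12 FPKM, with a within-group SD of 0.159 on the log2 scale, rank 629 of 1278. Within a group the highest library exceeded the lowest by 1.23-fold to 2.05-fold. The lowest value, 0.420, and the 2.05-fold come from the 9-month silica group, through a library with a low relative depth of 0.471.
At 1 month Alpk3 stood at 1.60, 1.76, 1.99, 2.12 and 1.39 FPKM in air and at 1.38, 1.31, 1.51, 1.18 and 1.22 in silica. The treatments overlapped through 1 silica rat at 1.51, above the lowest air rat at 1.39. At 3 months the values were 1.94, 1.48, 1.52, 1.47 and 1.31 in air and 1.14, 0.949, 0.989, 0.962 and 1.56 in silica. The silica rat at 1.56 is the one with 86.7 FPKM of Tnni3, and without it the 2 treatments do not overlap at 3 months.
At 6 months Alpk3 was 1.24, 1.27, 1.30, 0.862 and 0.948 in air and 0.734, 0.700, 0.722, 0.697 and 0.857 in silica. At 9 months it was 1.09, 1.12, 0.903 and 1.07 in air and 0.859, 0.714, 0.658, 0.420 and 0.825 in silica. At 12 months it was 0.965, 0.996, 1.03, 1.21 and 1.10 in air and 0.657, 0.690, 0.936, 0.710 and 0.642 in silica. Every silica library lay below every air library at these 3 times, the closest approach being 0.857 against 0.862 at 6 months.
At 18 months Alpk3 was 0.956, 0.850, 0.971, 1.45 and 1.10 in air and 0.899, 0.669, 0.787, 0.638 and 0.814 in silica, with 1 silica rat inside the air range. The silica groups lay below all air libraries for 0.782%, 1.72%, 4.62%, 8.61%, 1.72% and 1.88% of tested genes from 1 to 18 months, and at 3 or more times for 1.41% (18 genes). Nothing is read from this share, since the contrast chose the gene.
Group means went from 1.77 ± 0.29 (SD, n = 5) FPKM in air to 1.32 ± 0.13 (SD, n = 5) in silica at 1 month, and from 1.04 ± 0.096 (SD, n = 4) to 0.695 ± 0.17 (SD, n = 5) at 9 months. On the log2(FPKM + 0.5) scale, which understates the change of a gene this low, silica minus air was -0.31, -0.34, -0.38, -0.38, -0.35 and -0.30 from 1 to 18 months, each with an SE of 0.10 or 0.11. The mean over times was -0.34 ± 0.042 (SE). The difference was of nearly one size at all times, and in a bulk piece of lung fewer cells that express Alpk3 and less Alpk3 RNA per cell cannot be told apart.

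Whether the 4 genes vary together from rat to rat was tested after subtracting each group's mean, which removes treatment and time. Tnni3 and Ckm rose and fell together over the 59 libraries (Pearson r = 0.91, Spearman rho = 0.94). Both permutation p were 1e-05, the smallest that 100000 shuffles within groups can give, and 2e-05 after Benjamini-Hochberg adjustment over the 6 pairs of members. Cox8b followed Tnni3 at r = 0.74 (rho = 0.70) and Ckm at r = 0.80 (rho = 0.71), with the same p. These 3 genes were chosen with their spread over the same libraries in view. The p of these correlations, and of those with Alpk3 below, are therefore not an independent test. Without the 2 libraries farthest from the median of the first gene of each pair, these 3 correlations were 0.91, 0.74 and 0.72. Tnni3 showed no gap that would split the libraries into clusters, the widest step between neighbouring libraries being 0.404 on a log2 range of 6.98 once the extremes at both ends are set aside.
Alpk3 followed the other 3 less closely. Its correlation was r = 0.55 with Tnni3 (rho = 0.49; permutation adjusted p = 0.000228 and 0.000588), 0.57 with Ckm (rho = 0.53; adjusted p = 0.000228 and 0.000375) and 0.46 with Cox8b (rho = 0.42; adjusted p = 0.0018 and 0.00234). Without the 2 farthest libraries r was 0.44, 0.46 and 0.40. Within single times, with 9 or 10 libraries each, Tnni3 and Ckm correlated at 0.891 to 0.990, while Tnni3 and Alpk3 correlated at 0.0865 at 1 month and at 0.397 to 0.796 at the other times. All values share the scaling of their library, and the labels name no batch.

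**Figure D3:**
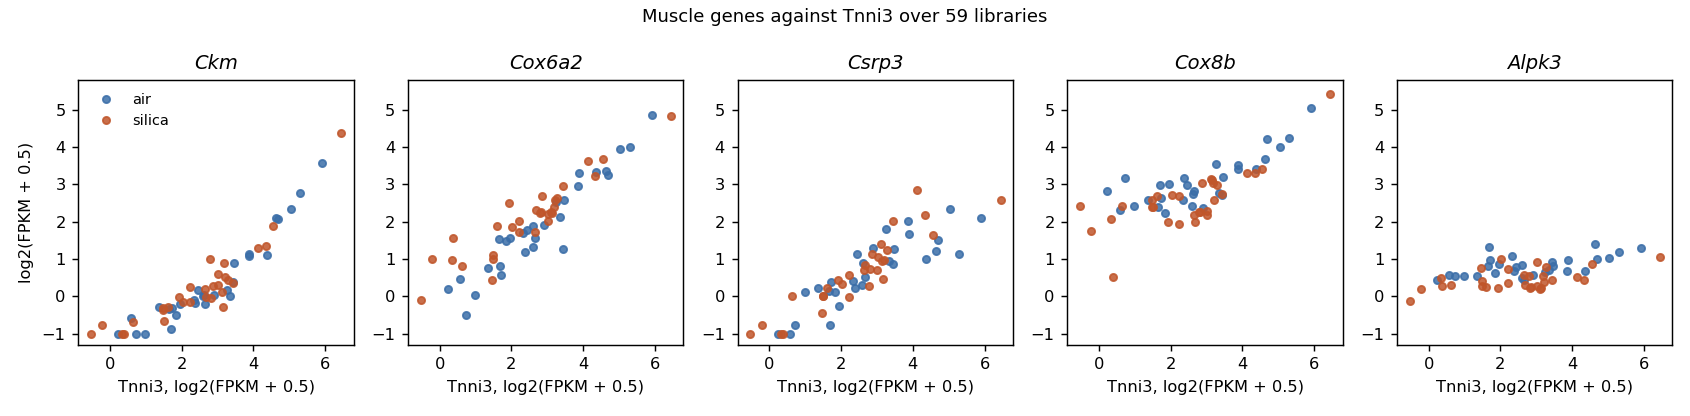
The 5 genes Ckm, Cox6a2, Csrp3, Cox8b and Alpk3 on the y axis against Tnni3 on the x axis, both as log2(FPKM + 0.5), 1 point per library, air in blue and silica in orange, with the same y range in all panels. Ckm, Cox6a2 and Csrp3 climb with Tnni3, Cox8b climbs only above a floor, and Alpk3 stays nearly flat, with silica and air points of different times mixed.

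Among the genes most like Tnni3 in this sense, of 1013 others with a gene symbol, were Cox6a2 (r = 0.94), Csrp3 (0.93), Ckm (0.91), Cox8b (0.74) and Cyp2f4, a cytochrome P450 of airway club cells (0.73). Alpk3 ranked 14th at 0.55. Among the genes most like Alpk3 were Cox6a2 (0.59), Ckm (0.57), Tnni3 (0.55), Csrp3 (0.51) and Fxyd1, phospholemman, the sodium pump regulator of heart (0.48). These 5 are all muscle list genes, though none reached the likeness that Tnni3 and Ckm showed to each other. These r are descriptions over the same 59 libraries. Cyp2f4 stood between 2.09 and 22.1 FPKM, so a gene of the airways moved with the cardiac genes from rat to rat, and its part in their variation was not tested.

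A stand-in for the muscle content of each piece, read from RNA, was then held in the model. It was taken as the mean of log2(FPKM + 0.5) of Tnni3, Ckm and Cox8b, and Alpk3 was modelled on the 12 groups plus this content. Cox8b, 1 of these 3 genes, was itself lower in silica at a given Tnni3 (-0.35 ± 0.13, SE). Content was lower in silica than in air by 0.50, 0.41, 0.18, 0.66 and 0.37 at 1, 3, 6, 9 and 18 months and higher by 0.066 at 12 months. A unit more content, a doubling of the geometric mean of FPKM + 0.5 of the 3 genes, went with 0.089 ± 0.019 (SE) more log2 Alpk3. It is not a doubling of muscle: per log2 unit of Tnni3, Ckm rose by 0.66 and Cox8b by 0.37. The slope of Alpk3 on content was 0.087 ± 0.029 in the 29 air and 0.090 ± 0.025 in the 30 silica libraries.
With content held, silica minus air for Alpk3 was -0.27 ± 0.084 (SE) at 1 month, -0.30 ± 0.084 at 3, -0.36 ± 0.084 at 6, -0.32 ± 0.089 at 9, -0.36 ± 0.084 at 12 and -0.27 ± 0.084 at 18 months. The mean over times was -0.31 ± 0.035, against -0.34 ± 0.041 in the same model without content. The difference was also -0.32 ± 0.035 with Tnni3 alone as content.
With log2 Tnni3 held, silica minus air was 0.095 ± 0.11 (SE) for Ckm and 0.16 ± 0.098 for Csrp3. For Cox6a2 it was 0.43 ± 0.11, against 0.15 ± 0.30 without Tnni3 in the model. At a given Tnni3 the estimates were thus negative for Cox8b and Alpk3 and positive for Ckm, Csrp3 and Cox6a2. These values are descriptions and were not tested.

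**Figure D4:**
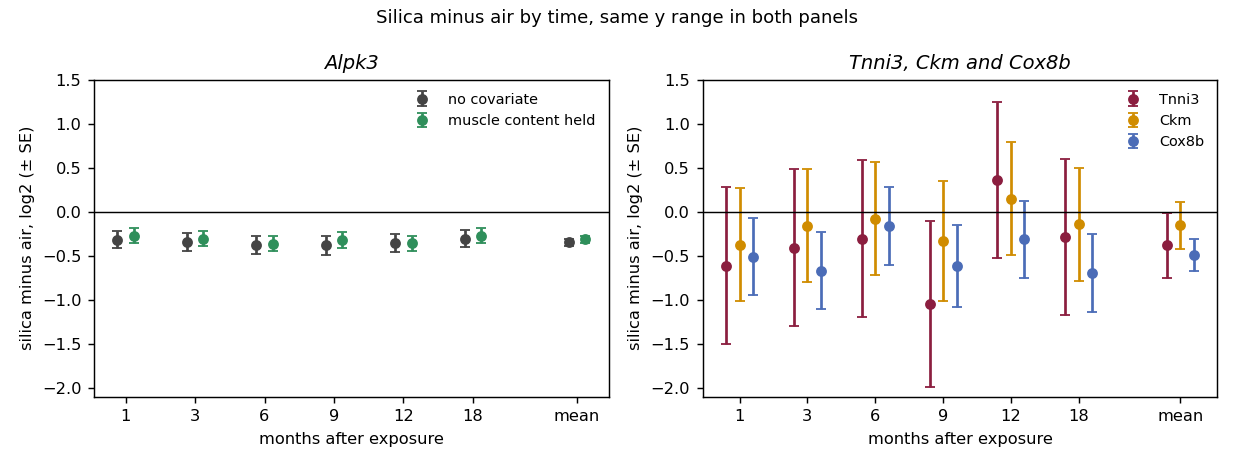
Silica minus air in log2(FPKM + 0.5) on the y axis at each time and as the mean over times, with SE bars, on the same y range in both panels; left, Alpk3 without and with muscle content held, right, Tnni3, Ckm and Cox8b. The Alpk3 points stay between -0.38 and -0.27 with short bars. The Tnni3 points run from -1.04 to 0.36, with bars of about 0.9 at single times and 0.37 for the mean.

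Age in air lungs, 18 months against 1 month after exposure, was a comparison that did not choose the members, though its 10 libraries are also controls of the other one. The libraries come from separate rats collected at different times, so age cannot be told apart from collection or processing. Alpk3 fell by 0.54 ± 0.10 (SE; limma adjusted p = 0.000108), from 1.77 ± 0.29 (SD, n = 5) to 1.07 ± 0.23 (SD, n = 5) FPKM. With muscle content as a covariate, an alternative added after the data were seen, the change was -0.46 ± 0.090 (limma adjusted p = 0.000219). The air means were 1.77, 1.54 and 1.12 FPKM at 1, 3 and 6 months, then 1.04, 1.06 and 1.07 up to 18 months, so that nearly all of the drop lay before 6 months and the last 4 means lie within one another's SD.
For the other members the changes were -1.45 ± 0.89 for Tnni3 (limma adjusted p = 0.254), -1.06 ± 0.64 for Ckm (0.250) and -0.25 ± 0.44 for Cox8b (0.755). Of the 4 members 1 passed and it was lower, where 21.8% of all tested genes passed, 17.4% higher and 4.46% lower. A p that misses the threshold of 0.05 leaves wide room for these 3 genes: the 95% interval for Tnni3 ran from -3.24 to 0.33.

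Other genes of striated muscle were read from lists written for heart, fast and slow skeletal and shared muscle genes. The table holds 19 of these 76 genes that are not members, and 9 of the 19 passed the filter. Silica minus air, averaged over times, passed the test in 5 of the 9, with 2 higher and 3 lower, where 57.6% of all tested genes passed. The 9 genes had a median change of -0.073 and all tested genes one of 0.032. At single times the list median ran from -0.48 at 9 months to 0.26 at 12 months, against 0.038 and 0.0065 for all tested genes. Whether the list as a whole differs from the table was not tested.
The heart-type genes Csrp3 and Cox6a2 did not pass. Csrp3 changed by -0.073 ± 0.25 (SE; limma adjusted p = 0.828) and Cox6a2 by 0.15 ± 0.29 (0.704).
Genes of wider expression in muscle and vessel wall did. Synm, synemin, an intermediate filament protein that links desmin to the membrane, fell by 0.36 ± 0.052 (limma adjusted p = 5.16e-08), Fxyd1 by 0.42 ± 0.063 (1.03e-07) and Dmpk, the myotonic dystrophy kinase, by 0.24 ± 0.052 (7.65e-05). Mybpc2 rose by 0.38 ± 0.052 (1.11e-08). Bag3, a co-chaperone of sarcomere upkeep, rose by 0.15 ± 0.048 (0.00498), and its adjusted p was 0.111 after median centring and 0.0859 after quantile normalization of the libraries.
Synm and Mybpc2 hardly followed Tnni3 from rat to rat (r = -0.13 and -0.35), Dmpk did so at 0.46 and Fxyd1 at 0.66. With muscle content held, Fxyd1 changed by -0.37 (limma adjusted p = 1.94e-08). Synm and Fxyd1 thus share the direction of Alpk3 at levels of 12.0 to 25.8 and 7.30 to 22.4 FPKM.

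By time, the 9 genes gave 1, 1, 3, 4, 3 and 3 calls from 1 to 18 months, where 8.84%, 18.2%, 27.6%, 30.8%, 23.6% and 15.3% of all tested genes passed. At 1 month the call was Mef2a, a muscle and broadly expressed transcription factor gene, higher by 0.36 ± 0.092 (SE; limma adjusted p = 0.00915), and it was not called after median centring or quantile normalization. Synm was lower at each later time, between -0.37 and -0.57, and Fxyd1 from 9 months on. Mybpc2 was higher from 6 months on, by 0.33 to 0.51. Dmpk was lower at 6 and 9 months. The 6-month calls of Mybpc2 and Dmpk and the 12-month call of Synm were not made without the filter on low values (limma adjusted p = 0.0705, 0.0974 and 0.061), nor was the first after median centring (0.0917). In air lungs Synm was higher at 18 months than at 1 month by 0.57 ± 0.13 (limma adjusted p = 0.000954) and Mef2a by 0.39 ± 0.092 (0.00143). Both changes were opposite in sign to that of Alpk3, and the other 7 genes did not pass.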

How the data were processed

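RNA from a piece of lung of 59 rats was isolated with miRNeasy kits and made into stranded, ribosome-depleted total RNA libraries, per the labels' protocols. The values deposited by the authors are FPKM, per the name of the deposited table. The submitters' processing notes name, without roles, Cufflinks 2.1.1 and TopHat2 2.0.9, further Bowtie2 2.2.9, bcl2fastq 2.19 and Trimmomatic 0.35. Genome build, annotation and strand setting: not given in the sources used here. Of 2888 entries the last held 31 of 59 values and was left out, and 0 columns were unmatched.

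FPKM are not counts, so limma 3.58.1 in R 4.3.3 was run on log2(FPKM + 0.5) with an intensity trend, 1 fit over all 12 groups (47 residual degrees of freedom), for 1278 genes (FPKM at or above 1 in 4 libraries or more). Adjusted p are Benjamini-Hochberg over these genes within a comparison, threshold 0.05. In 261 rare entries 63.7% of 1997 values lay within log2 0.1 of 1 step, which gives relative depth but not whole reads. Correlations used group-centred values, with shuffles within groups. The fit was checked on simulated data. Named genes are the members, the muscle list genes in the table, and the 6 genes most like Tnni3 and Alpk3, of which 1 is not reported here. Members and lists were chosen with earlier results of these data known. Libraries are labelled as separate rats of a group. Alternatives were other pseudocounts (0.1 and 1), filters, scalings, fits and contents, and leaving out each library or time. Plots were drawn with matplotlib 3.10.9 in Python 3.11.15.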

Additional observations from a re-analysis of the deposited data

Results flagged for a closer look

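Of 48 sets of values (4 members in 12 groups), 9 had a highest rat that stood far from the others by Dixon's criterion, which chance meets in about 1 in 20 sets of normally distributed values. FPKM of these genes are skewed and the members share libraries, so that rate need not hold here. The 3-month silica rat number 5 was such a rat for Tnni3 (86.7 FPKM, the next 8.58), Ckm (20.2, the next 1.48) and Cox8b (42.6, the next 7.73), so that 3 of the 9 come from 1 piece of lung.

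The others were spread over groups. Tnni3 stood at 20.1 FPKM in 1 air rat at 12 months, the next at 4.95. Ckm stood at 3.21 in 1 silica rat at 1 month, the next at 1.00, and at 1.598 in 1 air rat at 9 months, the next at 0.613. The library of that air rat had the lowest relative depth of all, 0.432. Cox8b stood at 9.30 in 1 silica rat at 9 months, the next at 4.82; this rat also had the highest Tnni3 of its group, 19.7 FPKM. Alpk3 stood at 0.857 in 1 silica rat at 6 months, the next at 0.734, and at 0.936 in 1 silica rat at 12 months, the next at 0.710. Both of these rats also had the highest Tnni3 of their group, 10.3 and 16.9 FPKM.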

How the results depend on the processing

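All 17 results that were recomputed kept their direction under every alternative run. Of 125 comparisons with another pseudocount, filter, scaling, fit, content or time, 122 kept their call or were counted as unchanged. The exceptions were correlations with Alpk3: Cox8b and Alpk3 correlated at 0.4495 in the silica libraries alone (adjusted p = 0.0583), and without the 2 farthest libraries Tnni3 and Alpk3 correlated at 0.442 and Ckm and Alpk3 at 0.456. For a mean difference, unchanged meant a move smaller than the SD between rats of a group. That SD, 1.45 for Tnni3, 1.05 for Ckm and 0.72 for Cox8b, exceeds the difference itself. For these 3 genes the label therefore says little. The count of list genes called for silica, 5 in the main fit, ran from 4 to 6 and was counted as unchanged. By the same rules, leaving out each library in turn changed none of the 17. The Alpk3 mean difference then ran from -0.360 to -0.329, and from -0.324 to -0.300 with content held, while that of Ckm ran from -0.282 (without the 3-month silica rat 5) to -0.0687 (without the 3-month air rat 1). Without the 1-month air rat 2 the age difference in air was -0.00151 for Cox8b and -0.581 for Ckm, neither of them called. The Alpk3 mean difference was -0.471 with a pseudocount of 0.1 and -0.259 with 1. No paired analysis was possible because the labels give no replicate number that groups share. FPKM keep no read counts, so the counting error of values near 0, such as those of Ckm, is unknown.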

Other observations

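Smooth muscle is the other contractile tissue of a lung piece. Of 15 listed genes 3 were in the table and all 3 were tested; averaged over times 1 was lower, 1 higher and 1 not called, where 57.6% of all tested genes were called. Ppp1r14a, an inhibitor of myosin phosphatase in smooth muscle, was lower in silica by -0.33 ± 0.057 (SE; limma adjusted p = 2.68e-06) over the 6 times and hardly followed Tnni3 (r = 0.14). Hspb6, a small heat shock protein of smooth and cardiac muscle, followed Tnni3 at r = 0.58 and changed by -0.11 ± 0.096 (adjusted p = 0.320). Myadm changed by 0.15 ± 0.042 (adjusted p = 0.00248), with an adjusted p of 0.0737 after median centring and 0.418 after quantile normalization.

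Cox6a2, the gene closest to Tnni3 in its rat-to-rat variation, differed by treatment with members held in the model and not without them. In the fit of all genes with muscle content as a covariate, an alternative added after the data were seen, Cox6a2 was higher in silica by 0.51 (limma adjusted p = 9.04e-05), and without the covariate it changed by 0.15 (adjusted p = 0.704). This covariate includes Cox8b, which was lower in silica.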
